A study of Homo sapiens with 5 samples.

Results

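Nascent transcription of 9 endoplasmic reticulum (ER) stress genes was compared in monoclonal HEK293T cells whose landing pad held the CAG promoter (3 libraries) or the PGK promoter (2 libraries). The genes were chosen by name, as a list of Ensembl identifiers paired with symbols: HSPA5, HSP90B1, DNAJB9, DNAJC3, PDIA4, PDIA6, HERPUD1, SEL1L and XBP1. All 9 were among the 20001 genes with an identifier in the deposited table and among the 13400 genes tested. HEK293T is a human embryonic kidney line transformed with adenovirus DNA, to which SV40 large T antigen was added. A landing pad is a genomic site built to take up inserted DNA; CAG is a strong synthetic promoter, and PGK comes from a glycolytic housekeeping gene. PRO-seq labels RNA in run-on reactions of engaged polymerase, so its reads report transcription in progress. All cells were grown in DMEM with serum and antibiotics and scraped before confluence, and no inducer of ER stress is named for any library. The labels tell the groups apart by the promoter alone. Neither the number of clones per promoter nor the origin of the replicates (separate cultures or not) is given. Effects of promoter and clone therefore cannot be told apart, and the p-values reflect the spread of these 5 libraries, which may be only technical.

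Library totals were 4873883, 5003130 and 5864157 counts in the CAG libraries and 5582070 and 3712105 counts in the PGK libraries. Each ER stress gene had between 69 and 1214 counts in a library. By CPM, the counts scaled to library size with TMM factors, 8 of the 9 genes lay in the upper 2 of 4 groups of equal size formed by mean level (6 and 2 genes), and DNAJB9 lay in group 2 from the bottom. Levels are not compared between genes, because gene lengths on the build of the files were not used here. HEK293 markers and other genes of the pathway were not analysed here, since the table and the reference do not share an identifier for them.

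Unfolded proteins in the ER lumen bind the chaperone HSPA5 (BiP) and activate the sensors IRE1, PERK and ATF6. IRE1 removes an intron from XBP1 mRNA, and the spliced message encodes a transcription factor; ATF6 is cut in the Golgi and its cytosolic part enters the nucleus. Both factors are known to act through short promoter elements of chaperone and degradation genes, with the CCAAT-binding factor NF-Y bound beside them. Secretory cells depend on this response, and a basal level of its chaperones is present in any growing cell.

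The best known of these elements, the ER stress response element, consists of CCAAT and CCACG separated by 9 bases. The RefSeq promoter windows (build GRCh38.p14, 250 bases before to 50 after a transcript start) were searched on both strands for it. All 9 genes had a window, 12 windows in all. An exact element was found for 4 of the 9 genes and in 27 of 34796 different windows (0.0776%). The matches are shown because they are a sequence that part of the set shares. The genes were chosen as ER stress genes, and the element is known from genes of this response. Matches were therefore likely in advance and are a description only. The 10 fixed letters are in capitals, and each run is printed on the strand that reads CCAAT first.
HSPA5: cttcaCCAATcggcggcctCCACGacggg
HSP90B1: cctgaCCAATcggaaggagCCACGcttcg
HSP90B1, second match: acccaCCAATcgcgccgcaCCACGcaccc
PDIA6: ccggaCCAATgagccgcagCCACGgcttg
XBP1: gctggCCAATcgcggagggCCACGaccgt

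The HSPA5 run is chr9:125241386-125241414 on the minus strand, and its element begins 66 bases upstream of the transcript start. In HSP90B1 the first run is chr12:103930211-103930239 on the plus strand (194 bases upstream) and the second chr12:103930316-103930344 on the minus strand (89 bases upstream). The PDIA6 run is chr2:10812848-10812876 on the minus strand (86 bases upstream), in 1 of that gene's 2 windows. The XBP1 run is chr22:28800598-28800626 on the minus strand (52 bases upstream), also in 1 of 2 windows. The 27 windows belonged to 25 gene symbols. Among the 21 that are not in the set were CALR and CANX, lectin chaperones of the ER, CRELD2, a secreted ER stress protein, and SERP1, a stabiliser of ER membrane proteins. They were picked from the 21 after the symbols were seen, and their counts were not analysed here. The 21 also included FRG2, GLRA2, NLRP4, TRIM5 and ZNF17, and were not sorted by function.

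HERPUD1 carried the related element II, ATTGG and CCACG separated by 1 base, which was found in 19 of the same windows (0.0546%).
HERPUD1: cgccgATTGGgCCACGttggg

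This run is chr16:56932020-56932040 on the plus strand, and the element begins 117 bases upstream of the start. With at most 1 mismatch allowed in the 10 fixed letters, a setting added after the exact search, the first element was found for 7 of the 9 genes and in 538 windows (1.55%). HERPUD1, DNAJC3 and SEL1L were the additions. For DNAJC3 the nearest match is shown because that gene had the largest fold change of the set; its mismatched letter is in lower case.
DNAJC3: cgcagCCtATcagcgcgaaCCACGacccc

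The DNAJC3 run is chr13:95676999-95677027 on the plus strand, 135 bases upstream. No match of either element was found in the windows of DNAJB9 and PDIA4. The unfolded protein response element TGACGTGG was found in 255 windows (0.733%) and in none of the 12 windows of these genes. No match overlapped another. A match describes letters in a 300-base window and not binding, and binding was not measured in these libraries.

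**Figure D1:**
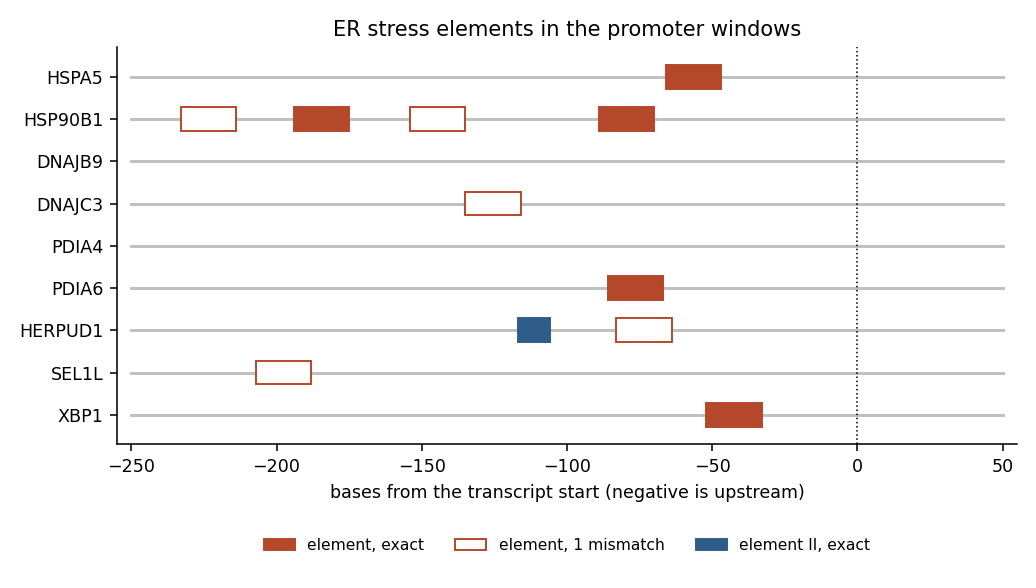
Promoter windows of the 9 genes, drawn from 250 bases upstream to 50 bases downstream of the transcript start (dotted line); boxes mark exact elements (filled), elements with 1 mismatch (open) and element II (blue), each placed relative to the start of its own window. Exact elements lie between 194 and 52 bases upstream in HSP90B1, PDIA6, HSPA5 and XBP1, and DNAJB9 and PDIA4 have no box.

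In the comparison of lines, 5 of the 9 genes were called higher with the CAG promoter and 0 lower, at an adjusted p under 0.05 in edgeR's quasi-likelihood test over all 13400 tested genes. These were DNAJC3, PDIA4, HSPA5, HSP90B1 and HERPUD1. The background was broad: 43.4% of all tested genes were called and 22.7% were called higher. The share of called genes in the set, 55.6%, lay near the 43.4% for calls in either direction. All 5 calls were higher, and the share for that direction was the 22.7%. The 9 genes were chosen with results of these data known, and no test of the set was made. By level, 46.4% and 49.7% of all tested genes were called in the upper 2 groups, where 8 of the 9 lay. The median log2 fold change of the 9 was 0.21, against -0.0046 over all tested genes, and the median size of change was 0.21, against 0.25. Of the 9 log2 fold changes 8 were above 0. All CAG libraries lay above both PGK libraries for 6 of the 9, as they did for 30.9% of tested genes (61.2% did not overlap in either direction). Without PGK replicate 1, 2 of the 9 were called (22.2%), DNAJC3 and PDIA4, against 41.8% of all genes tested in that fit. Without CAG replicate 1, 3 of the 9 were called (33.3%), against 35.7% of all tested genes.

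**Figure D2:**
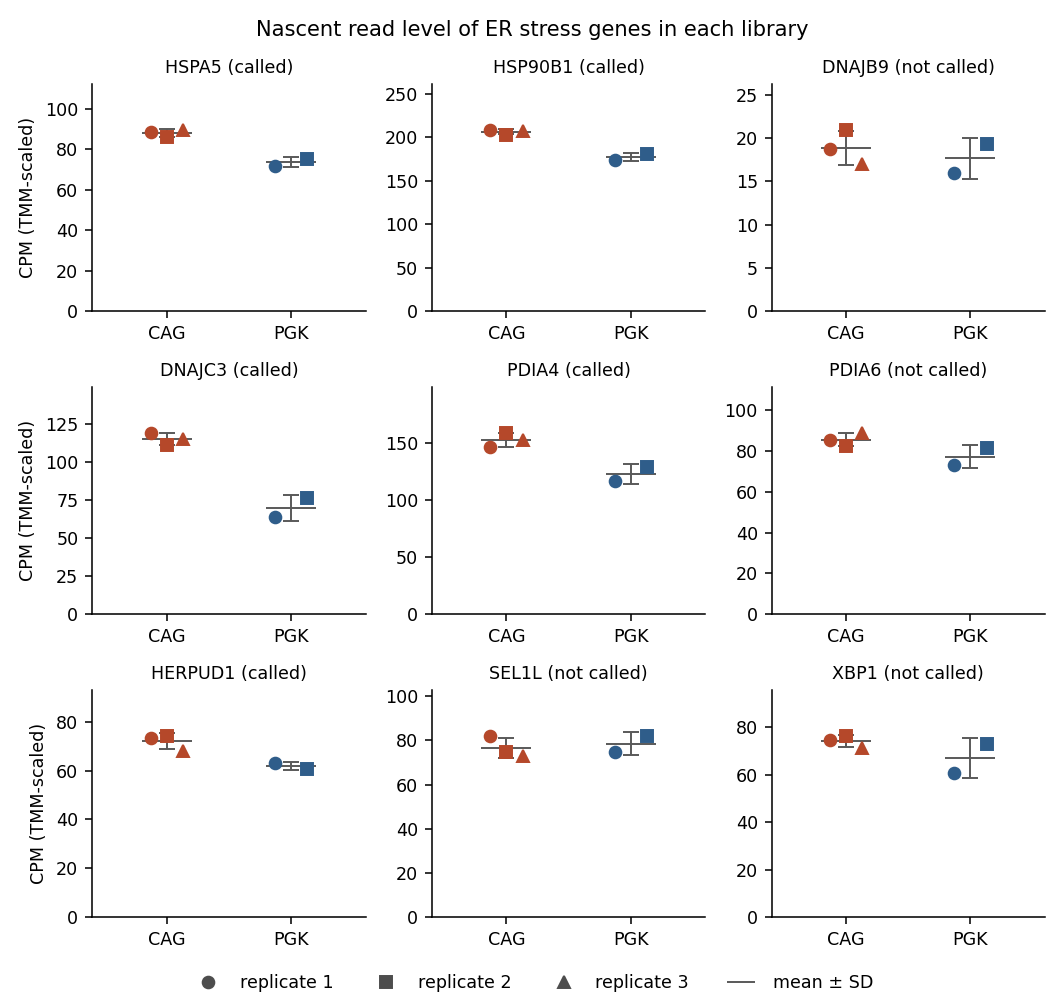
Level of each gene in CPM after TMM scaling (vertical axis, starting at 0) in the 3 CAG and 2 PGK libraries; symbols give the replicate number, and bars the mean ± SD. The CAG points lie above the PGK points in 6 panels, by the widest margin for DNAJC3 (110.9 to 119.2 CPM in CAG libraries, 63.8 and 76.0 CPM in PGK libraries).

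The main lumenal chaperones HSPA5 and HSP90B1 were both higher in the CAG line. HSPA5 (ENSG00000044574, chromosome 9) encodes BiP, the ER member of the HSP70 family and the chaperone that holds the stress sensors inactive. It stood at 88.5, 85.8 and 89.5 CPM in the CAG libraries, against 71.8 and 75.1 CPM in the PGK libraries. The libraries of each line lay close together and did not overlap between lines. The fold change was 1.20 (95% interval 1.07 to 1.34, edgeR adjusted p = 0.00812), and without PGK replicate 1 the log2 fold change of 0.26 became 0.22 with an edgeR adjusted p of 0.0746.

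HSP90B1 (ENSG00000166598, chromosome 12) encodes GRP94, the HSP90 of the ER, which folds integrins and Toll-like receptors. Its levels were 208.5, 202.9 and 206.6 CPM in the CAG libraries, against 173.6 and 180.6 CPM in the PGK libraries. Again every CAG library lay above every PGK library. The fold change was 1.16 (1.05 to 1.29, edgeR adjusted p = 0.0166). Leaving out CAG replicate 1, CAG replicate 3 or PGK replicate 1 raised the edgeR adjusted p to 0.0831, 0.0623 and 0.0589. The RefSeq annotation places MIR3652 within this gene, and the table does not show whose reads were counted.

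The co-chaperones DNAJC3 and DNAJB9, J-domain proteins that stimulate HSP70 chaperones, differed in what could be measured. DNAJC3 (ENSG00000102580, chromosome 13) encodes P58IPK, which binds unfolded proteins for HSPA5 in the lumen. Its counts were 586, 561 and 675 in the CAG libraries, against 360 and 271 in the PGK libraries. That corresponds to 119.2, 110.9 and 114.9 CPM in CAG cells and 63.8 and 76.0 CPM in PGK cells. The lowest CAG library exceeded the highest PGK library by 0.55 on the log2 scale, more than the 0.25 between the PGK libraries. The fold change was 1.66 (1.48 to 1.87, edgeR adjusted p = 7.67e-08), the largest of the 9, and 13.1% of all tested genes changed by more. It was called under all 12 alternatives of scaling, filter, tool, block and libraries, with log2 fold changes from 0.59 without PGK replicate 1 to 0.85 without PGK replicate 2.

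DNAJB9 (ENSG00000128590, chromosome 7) encodes ERdj4, a co-chaperone of HSPA5 known from hamster cells to bring it to the sensor IRE1. It had the fewest counts of the set, 92, 106 and 100 in the CAG libraries and 90 and 69 in the PGK libraries. Its levels were 18.7, 21.0 and 17.0 CPM in CAG cells and 16.0 and 19.3 CPM in PGK cells, and the lines overlapped. The fold change was 1.08 with an interval of 0.861 to 1.37 (edgeR adjusted p = 0.592). That interval includes the fold change of 1.20 fitted for HSPA5, and the effect of depth was not tested. Counting error alone gave a standard error of 0.14 (log2), close to the fitted 0.16. Without PGK replicate 1 the log2 fold change was -0.049.

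Of the disulfide isomerases, which form and rearrange disulfide bonds in folding proteins, PDIA4 was called and PDIA6 was not. PDIA4 (ENSG00000155660, chromosome 7) encodes ERp72. It had 147.1, 159.2 and 153.1 CPM in the CAG libraries, against 116.8 and 129.0 CPM in the PGK libraries. The lines did not overlap, and the gap of 0.19 (log2) between the nearest libraries exceeded the range within either line (0.11 in CAG, 0.14 in PGK). The fold change was 1.25 (1.13 to 1.39, edgeR adjusted p = 0.00076), and it was called without each library in turn.

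PDIA6 (ENSG00000143870, chromosome 2) encodes P5, an isomerase that works with HSPA5 and is known to attenuate IRE1 and PERK signalling. Its levels were 85.2, 82.7 and 89.0 CPM in the CAG libraries and 73.2 and 81.3 CPM in the PGK libraries. CAG replicate 2 lay just above PGK replicate 2, by 0.024 on the log2 scale. The fold change of 1.12 had an interval of 0.995 to 1.25 (edgeR adjusted p = 0.115). Without PGK replicate 2 the edgeR adjusted p was 0.0334 and the log2 fold change 0.23. In RefSeq the gene overlaps ATP6V1C2, a subunit gene of the proton pump, so its counts may hold reads of both.

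Of the genes of ER-associated degradation, which returns misfolded proteins to the cytosol for the proteasome, HERPUD1 was narrowly called and SEL1L was not. HERPUD1 (ENSG00000051108, chromosome 16) encodes a ubiquitin-like membrane protein of the degradation complex. It stood at 73.4, 74.4 and 68.2 CPM in the CAG libraries, against 63.1 and 60.8 CPM in the PGK libraries. The lines did not overlap. The fold change was 1.16 (1.02 to 1.31, edgeR adjusted p = 0.0489), and the call was lost without CAG replicate 1, CAG replicate 2, PGK replicate 1 or PGK replicate 2 (edgeR adjusted p = 0.136, 0.126, 0.0936 and 0.12). DESeq2 gave an adjusted p of 0.199.

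SEL1L (ENSG00000071537, chromosome 14) encodes the adaptor that holds the ubiquitin ligase HRD1 in that complex. Its levels were 82.0, 74.8 and 73.2 CPM in the CAG libraries and 74.8 and 82.1 CPM in the PGK libraries. The ranges of the lines nearly coincided. It was the only one of the 9 with a fold change under 1, at 0.981 (0.871 to 1.11, edgeR adjusted p = 0.815). The interval excludes the fitted fold changes of the 5 called genes and also those of PDIA6 and XBP1, which were not called. Those fold changes carry error of their own. The intervals of HSPA5, HSP90B1, HERPUD1, PDIA6 and XBP1 overlapped that of SEL1L, and those of DNAJC3 and PDIA4 did not. No test of SEL1L against other genes was run.

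XBP1 (ENSG00000100219, chromosome 22), the transcription factor gene of the set, was not called. Its levels were 74.9, 76.5 and 71.5 CPM in the CAG libraries and 61.0 and 72.9 CPM in the PGK libraries. PGK replicate 2 lay within the CAG range, and the difference of 0.26 (log2) between the PGK libraries exceeded the fold change between lines. That fold change was 1.12 (0.989 to 1.27, edgeR adjusted p = 0.135). Without PGK replicate 2 the log2 fold change of 0.17 became 0.28 with an edgeR adjusted p of 0.0143, and without PGK replicate 1 it was 0.016. Whole-gene counts do not show splicing of XBP1 mRNA, so the activity of IRE1 was not measured.

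**Figure D3:**
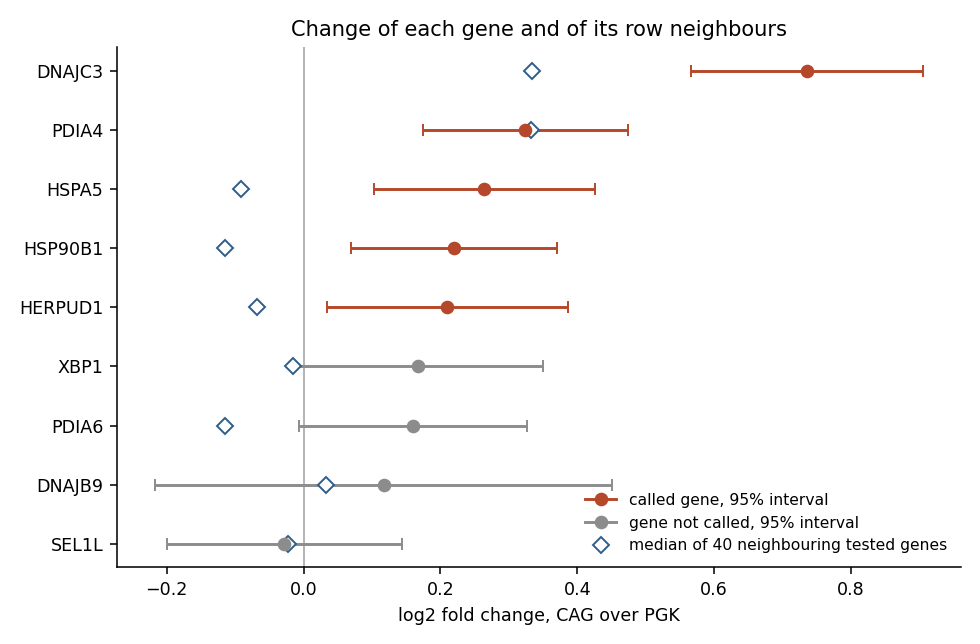
Log2 fold change of CAG over PGK for each gene (filled circles, orange where called and grey where not) with its 95% interval, and the median log2 fold change of the 40 tested genes next to it in the table (open diamonds). DNAJC3 lies farthest to the right at 0.74, the diamond of PDIA4 falls on its circle, and those of HSPA5, HSP90B1, PDIA6 and HERPUD1 lie between -0.12 and -0.068.

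Each gene was also set beside the 20 tested genes on each side of it in the table. The rows of the 9 genes follow the order of chromosome and position in RefSeq for 9 of 9, and the order of other rows was not checked. Only DNAJB9 and PDIA4 share a chromosome, so order within a chromosome was checked for that pair alone. Neighbours in the table were therefore not shown to be neighbours in the genome. HSPA5, HSP90B1, PDIA6 and HERPUD1 had slightly negative neighbourhood medians, of -0.092, -0.11, -0.12 and -0.068 on the log2 scale. Neighbourhood medians over all tested genes had an SD of 0.26, larger than the size of any of these. Relative to their own neighbourhood medians the log2 fold changes of these genes were 0.36, 0.33, 0.28 and 0.28. Neighbours that exceeded the gene itself were 3 of 40 for HSPA5, 7 for HSP90B1, 6 for PDIA6 and 9 for HERPUD1. The share of all tested genes above each was not computed. Counting either direction, 47.5%, 54.1%, 64.8% and 55.6% of all tested genes changed by more than these genes.

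Around PDIA4 the neighbours were higher in the CAG line too. PDIA4 had a log2 fold change of 0.32 and its 40 neighbours a median of 0.33; 21 of the 40 exceeded it, and 21 were called higher and 0 lower. The sides differed: the 20 tested genes before PDIA4 had a median of 0.13, with 6 called higher, and the 20 after it had a median of 0.45, with 15 called higher, so its own value lay between them. The tested genes 13 and 14 places after PDIA4 had log2 fold changes of 6.47 and 10.8 (edgeR adjusted p = 4.69e-18 and 1.18e-15). Relative to its neighbours the log2 fold change of PDIA4 was -0.017 with 10 genes on each side, -0.0081 with 20 and 0.091 with 50. The neighbours' level relative to the mean of all libraries was 0.13, 0.15 and 0.093 in the CAG libraries and -0.12 and -0.23 in the PGK libraries. The part of the neighbourhood in the higher level of PDIA4 was not tested.

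The sides differed around DNAJC3 as well. The 20 tested genes before it had a median log2 fold change of 0.003, with 6 called higher, and the 20 after it had a median of 0.56, with 19 called higher. Its own 0.74 stood above both medians. Of its 40 neighbours 7 exceeded it, all of them among the 20 after it, with values up to 1.18. Relative to its neighbours the log2 fold change was 0.49 with 10 genes on each side, 0.40 with 20 and 0.28 with 50. The comparison of the sides, for both genes, was added after the values were plotted. RefSeq lists 3 mitochondrial pseudogenes within DNAJC3, and whether reads of mitochondrial RNA entered its counts was not tested.

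Around DNAJB9, SEL1L and XBP1 the neighbourhood medians were 0.032, -0.023 and -0.015, close to the centre of all genes. When the neighbourhood level of every gene was taken out through offsets, an alternative added after seeing the data, edgeR again called 5 of the 9 higher. PDIA6 (log2 0.28, adjusted p = 0.0133) took the place of PDIA4 (log2 -0.0080, adjusted p = 0.956). HSPA5, HSP90B1, DNAJC3 and HERPUD1 were called in both, with adjusted p of 0.00133, 0.0012, 0.000652 and 0.0177 after removal. The removed level was itself estimated from the same libraries without error, so these p-values are too small. Over all tested genes 3439 (25.7%) were called in that fit.

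**Figure D4:**
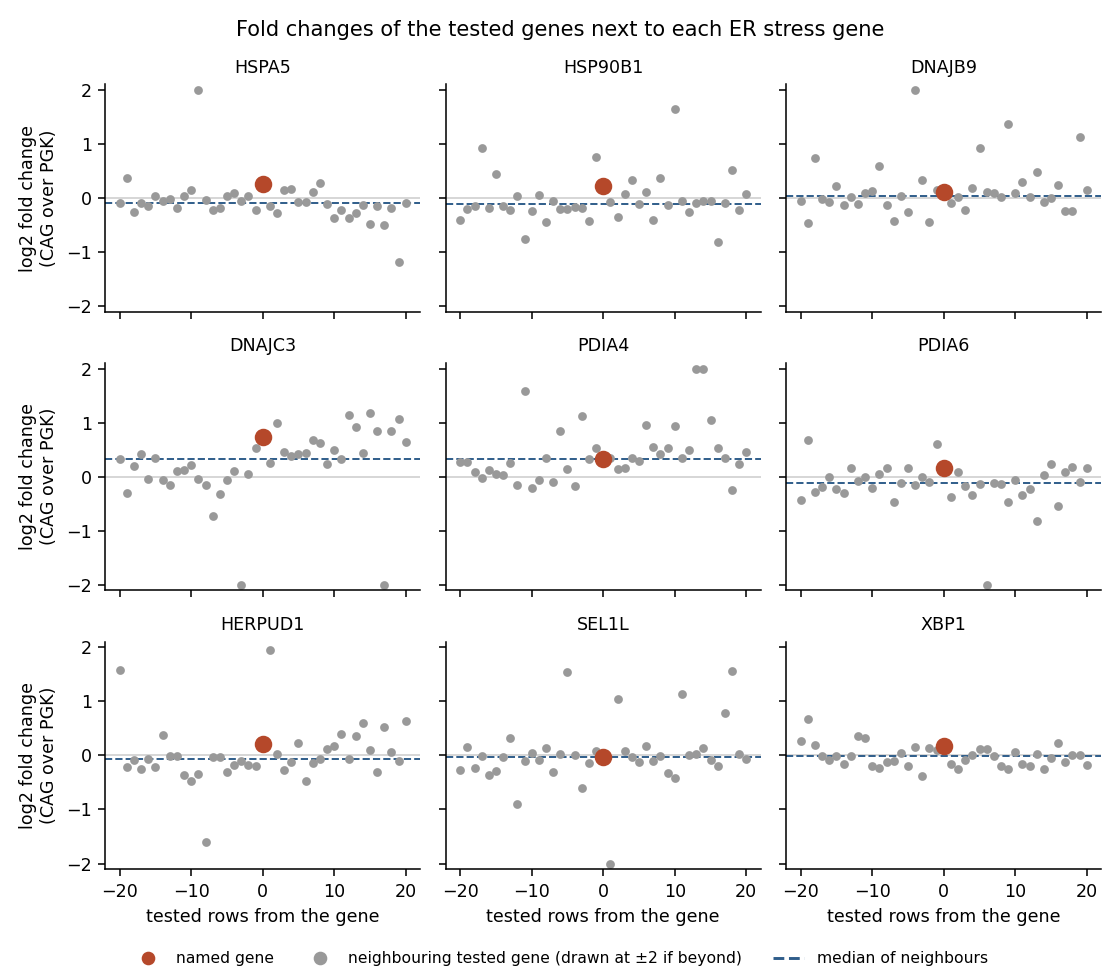
Log2 fold changes (CAG over PGK, vertical axis) of the 20 tested genes before and after each of the 9 genes, by distance in tested rows; the named gene is orange, neighbours are grey (drawn at the edge if beyond the axis) and the dashed line is their median. The grey points to the right of DNAJC3 lie higher than those to its left (medians 0.56 and 0.003), and those around HSPA5 lie mostly below it.

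Within the set, HSP90B1 lay closest to HSPA5 over the 5 libraries, and distances between other pairs were not computed. By Euclidean distance between log2 CPM values centred on each gene's mean, HSP90B1 ranked 22 among 6466 genes by closeness to HSPA5 (those averaging 50 CPM or more, and DNAJB9). PDIA6, PDIA4, HERPUD1 and XBP1 followed at ranks 356, 394, 532 and 914. DNAJB9, SEL1L and DNAJC3 were far down, at 2376, 2482 and 4582. The distance depends on the size of a change as well as its direction, and DNAJC3 had the largest fold change of the set. The rank rests on 5 libraries that share the contrast between lines, and is a description only. Genes outside the set are not named, since the table does not pair their identifiers with symbols.

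Together the 9 genes took 0.0905%, 0.0898% and 0.0885% of all counts in the CAG libraries, and 0.0722% and 0.0747% in the PGK libraries. The exact binomial 95% intervals were 0.0879% to 0.0932%, 0.0872% to 0.0924% and 0.0861% to 0.0909% in the CAG libraries and 0.0699% to 0.0744% and 0.0719% to 0.0775% in the PGK libraries, and cover counting error only. The mean share was 0.0896% ± 0.00103 in the CAG line (SD, n = 3) and 0.0734% ± 0.00178 in the PGK line (SD, n = 2), a ratio of 1.22. Of TMM-scaled library sizes the shares were 0.0897%, 0.0888% and 0.0883% in the CAG libraries, and 0.0714% and 0.0777% in the PGK libraries. On that scale the PGK libraries lay farther apart. The shares did not overlap between lines on either scale. No test was made of this sum, since the genes were chosen with results of these data known.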

How the data were processed

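The authors deposited 1 table of raw read counts, whole numbers per gene and library. The submitters' processing notes name featureCounts 2.0.3, HISAT2 2.2.1, Bowtie2 2.5.1, UMI-tools, fastp 0.23.2 and cutadapt, and the hg19 build. What each tool did, and the annotation, strand setting and gene part counted, have no entry (not given in the sources used here): reads of overlapping or antisense genes may be mixed, and paused and elongating polymerase cannot be told apart. All 5 columns were matched to samples by description. Of 20019 rows, 18 had no identifier and were left out.

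Counts were filtered with filterByExpr (minimum count 10, minimum total 15), scaled by TMM and tested with edgeR 4.0.16 (R 4.3.3), glmQLFit and glmQLFTest, CAG over PGK with no covariate. P-values were Benjamini-Hochberg adjusted over all tested genes. Intervals are the log2 fold change ± a t quantile times its size over the square root of F. Log2 CPM used a prior count of 2. The code was tested on simulated data.

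The 9 genes, the gene lists and the tests were chosen with earlier results of these data known. The named genes were all 9 of the set; the rule also took genes of fixed lists, but those 9 lists of other pathway genes, paralogues and cell type markers could not be matched to identifiers and were not analysed here. Proteins were not analysed here. Alternatives were other scaling, DESeq2 1.42.0 on the same genes, limma-trend (limma 3.58.1), other filters, the replicate number as a block and leaving out each library. Promoter sequences are from RefSeq, matched by symbol for 9 of 9 genes.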

Additional observations from a re-analysis of the deposited data

Results flagged for a closer look

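A very small number of counts lay in rows that no comparison used: 18 rows with a blank identifier summed to 95 counts, with 21, 15 and 21 in the CAG libraries and 25 and 13 in the PGK libraries. No line had the 4 libraries needed to test for one that stands apart.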

How the results depend on the processing

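Of 108 results for single genes (9 genes under 12 alternatives), 88 kept their direction and side of the threshold, 14 lost and 2 gained a call, and 4 changed direction. None of the 5 called genes changed direction under these 12. The changes of direction were SEL1L (log2 0.0048 with the replicate block, and -0.11 to 0.033 with 1 library left out) and DNAJB9 (-0.049 to 0.24 with 1 library left out, negative without PGK replicate 1). With neighbourhood levels taken out, PDIA4 had -0.0080 on the log2 scale, a direct consequence of removing the level of its neighbours, and 3439 genes were called over the whole table in place of 5818 (1671 higher, 1768 lower). DNAJC3 and PDIA4 were called under all 12, HSPA5 under 9, HSP90B1 under 8 and HERPUD1 under 5.

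The count of 5 called genes became 3 with DESeq2 (HSP90B1, DNAJC3 and PDIA4), which called 4054 of all 13400 genes (30.3%, against 43.4% in edgeR; the cause was not tested), and ran from 2 to 6 with 1 library left out. A lone PGK library was then taken to have the spread of the CAG libraries. With the replicate number as a block, 2 of the 9 were called, both among the 5, and 4667 of all genes (34.8%), of which 4559 also had a call of the same sign with no block. Libraries of the same number deviated from their line means with correlations of 0.038 and -0.068, and no label gives a shared batch, so this pairing was not used. Over all genes, leaving out 1 library gave 4754 to 5689 calls. The summed share differed by 0.0162 percentage points (CAG minus PGK), by 0.0144 of TMM-scaled library sizes, and by 0.0149 to 0.0174 with 1 library left out. Plain library totals gave 7 of the 9 genes whose lines did not overlap in place of 6. The share of all tested genes under plain totals is not given here. With TMM scaling it was 61.2% in either direction. DNAJB9 had the fewest counts of the set, and the effect of depth on its result was not tested.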
